A study of Mus musculus with 2 samples.

Results

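*Lrat*, the gene of lecithin:retinol acyltransferase, was followed in fibroblasts among the retinoid-containing cells of the mouse lung. It is 1 of the 32285 genes in the deposited single-cell count matrices, and the other genes were compared between fibroblasts that held its transcript and fibroblasts that did not. UV-positive live cells, sorted from lung digests by the autofluorescence of stored retinoids, came from wild-type male C57BL/6 mice aged 3 months. They were sequenced as 2 libraries on separate occasions, called library 1 and library 2, with no treatment and no second genotype. All cells had passed the UV gate, which selects on the retinoid store itself, and the number of mice behind each library was not given. Fibroblasts were cells with at least 200 detected genes, at most 10% mitochondrial transcripts, a summed count of at least 3 for *Col1a2*, *Mfap4* and *Pdgfra*, and a count of 0 for *Cdh5*, *Pecam1*, *Epcam* and *Ptprc*. A fibroblast was called alveolar when its *Dcn* count was 0 and adventitial when it was 3 or more. Of 9634 cells kept in library 1, 7661 were fibroblasts, with 5821 alveolar and 1018 adventitial cells. Of 9988 cells kept in library 2, 7239 were fibroblasts, with 5396 alveolar and 963 adventitial cells. The remaining 822 and 880 fibroblasts held 1 or 2 *Dcn* transcripts.

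Lecithin:retinol acyltransferase moves a fatty acid from a membrane phospholipid to retinol and so makes the retinyl esters in which cells store vitamin A. The esters it makes are later cleaved by lipases and carboxylesterases so that retinol can be released or oxidised to retinoic acid. Its transcript is best known as a marker of hepatic stellate cells, the vitamin A store of the liver, and of lipid-laden fibroblasts in the alveolar wall.

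*Lrat* (ENSMUSG00000028003) lies on chromosome 3 of GRCm38, from 82892579 to 82903973 on the minus strand, with 1 annotated transcript of 2 exons. Exon 1, from 82903173 to 82903973, holds the 5′ UTR of 261 bases and 540 coding bases. Exon 2, from 82892579 to 82897128, holds the last 153 coding bases and a 3′ UTR of 4397 bases, the end of the transcript that a 3′ counting assay reads. The gene lies within the span of *Rbm46os*, which is annotated on the opposite strand from 82876705 to 82943638. The 250 bases before the start site (RefSeq, GRCm38.p6, chr3:82903975-82904224, minus strand) are shown because the comparisons below concern how much of this transcript a fibroblast holds. The stretch is 59.2% G or C, with 18 CpG dinucleotides, and capitals mark the 3 matches to the motifs that were searched on both strands.
Lrat: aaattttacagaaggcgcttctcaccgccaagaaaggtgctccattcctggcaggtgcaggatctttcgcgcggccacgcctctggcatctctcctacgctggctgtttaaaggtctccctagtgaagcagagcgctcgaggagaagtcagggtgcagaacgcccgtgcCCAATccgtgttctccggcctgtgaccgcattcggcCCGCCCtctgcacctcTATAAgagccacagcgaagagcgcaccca
The TATA box letters TATAA began 29 bases before the start site, the GC box GGGCGG was matched on the minus strand 45 bases before it, and the letters CCAAT began 81 bases before it. Of 32851 RefSeq mouse promoters cut in the same way, 22.8% held TATAA, 32.7% GGGCGG and 33.8% CCAAT. The letters AGGTCA, a core recognised by many nuclear receptors, were not in this stretch and were in 14% of the promoters. These are matches of letters only.

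Unique molecular identifiers (UMIs), which count captured transcripts, reached 48762735 in library 1 and 93970185 in library 2, with 11627 and 10262 of them from *Lrat*. The median cell held 4480 and 7578 UMIs. Because a deeper cell shows more genes, each cell was thinned at random to 2000 UMIs and shallower cells were left out, 734 and 40 alveolar and 17 and 0 adventitial fibroblasts in libraries 1 and 2. Levels below are in CPM, the UMIs of a gene per 1000000 UMIs of all thinned cells in the sum, unless another scale is named, and intervals on levels and shares are exact 95% intervals that cover counting error only. Folds and adjusted p-values are from edgeR on the sums per library, with the library as a block, and the error beside a log2 fold change is its SE. Only 2 libraries stand behind each test, and their mice were not described, so p-values do not speak for the spread between mice. A small SE or adjusted p also does not show that the libraries agreed in size. In the contrast of alveolar cells below, *Sftpc* had an SE of 0.05 beside log2 fold changes of -1.55 and -0.26 in the single libraries. The libraries shared 23 cell barcodes. A cell without an *Lrat* UMI is a cell in which none was sampled at this depth, not a cell shown to lack the transcript.

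The gates were compared with marker lists of genes they had not used. Gates and lists were chosen with earlier results of these data known, so this is a description and not an independent check. Alveolar and adventitial fibroblasts differed in 2185 of 11653 genes tested (adjusted p under 0.05), 18.8% of them, with 7.97% higher and 10.8% lower in alveolar cells. Of 25 alveolar fibroblast markers, 21 were higher in alveolar cells, with a median log2 fold change of 0.91 against 0.03 for all genes tested. *Slc7a10*, an amino acid transporter, was at 254 and 137 CPM in alveolar cells and 17.5 and 15.1 CPM in adventitial cells. The 2 markers that went the other way were *Gpc3* and *Adh1*. Of 20 adventitial markers tested, 17 were lower in alveolar cells, with a median of -2.91, and *Pcolce2* alone was higher. *Pi16*, a marker of adventitial fibroblasts, was at 0.59 and 0.37 CPM in alveolar cells against 217 and 45.2 CPM in adventitial cells. Most markers thus went with the names of the gates.

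The level of *Lrat* was higher in adventitial than in alveolar fibroblasts in both libraries, and higher in fibroblasts than in cells gated as epithelial or immune. Adventitial fibroblasts held 383 CPM in library 1 (interval 356 to 411) and 239 CPM in library 2 (218 to 262), a mean of 311 ± 102 CPM (SD, n = 2). Fibroblasts with 1 or 2 *Dcn* transcripts held 354 and 162 CPM, a mean of 258 ± 136 CPM (SD, n = 2). Alveolar fibroblasts held 292 CPM (282 to 303) and 103 CPM (97.2 to 109), a mean of 198 ± 134 CPM (SD, n = 2). Library 1 was the higher library in each of these classes, and the order of the 3 classes was the same in both. The groups overlapped between libraries, since the alveolar level of library 1 was above the adventitial level of library 2. Alveolar *Lrat* was 2.83 times as high in library 1 as in library 2, and adventitial *Lrat* 1.60 times.

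Within a library the classes could be set apart more closely. Adventitial cells held 1.31 times the alveolar level in library 1 (1.21 to 1.42) and 2.32 times in library 2 (2.07 to 2.58), and these intervals did not overlap. Such intervals take each UMI as independent. Counts were spread more widely over cells than that, as given below, so the intervals are too narrow. In library 1 the adventitial level was 1.08 times that of the fibroblasts with 1 or 2 *Dcn* transcripts, with an interval of 0.97 to 1.21, so these neighbours did not differ beyond counting error. In library 2 the same ratio was 1.48 (1.27 to 1.72). In the fit with the library as a block, alveolar *Lrat* was below adventitial *Lrat* by a log2 fold change of -0.83 ± 0.13 (adjusted p = 0.000107), with -0.44 in library 1 alone and -1.20 in library 2 alone. Each library thus showed the same direction with a different size. Without the library as a block the fold change was -0.70 and the adjusted p was 0.867.

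Cells gated as epithelial or immune held few *Lrat* transcripts. Epithelial cells held 2 UMIs in 475 cells of library 1, or 2.11 CPM, and 0 UMIs in 62 cells of library 2. Immune cells held 0 UMIs in 75 cells and 1 UMI in 140 cells, the latter 3.57 CPM. Both classes lay below every fibroblast class in both libraries. The alveolar level was 139 times the epithelial level in library 1 (38.4 to 1147) and 28.9 times the immune level in library 2 (5.17 to 1142), ratios that rest on 1 or 2 UMIs. In the fit over all classes *Lrat* was lower than in alveolar cells both in the epithelial gate (adjusted p = 5.71e-31) and in the immune gate (adjusted p = 1.04e-17), comparisons in which 38.3% and 37.2% of 10885 genes differed. Endothelial cells held 3 UMIs in 19 cells of library 1, or 78.9 CPM (16.3 to 231), and 2 UMIs in 225 cells of library 2, or 4.44 CPM. The endothelial class of library 1 was too small for a test, and the alveolar level was 3.70 times (1.27 to 18.0) and 23.2 times (6.41 to 192) as high. Barcodes with fibroblast markers together with markers of another lineage held 190 and 80.6 CPM, between the alveolar fibroblasts and those lineages.

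**Figure D1:**
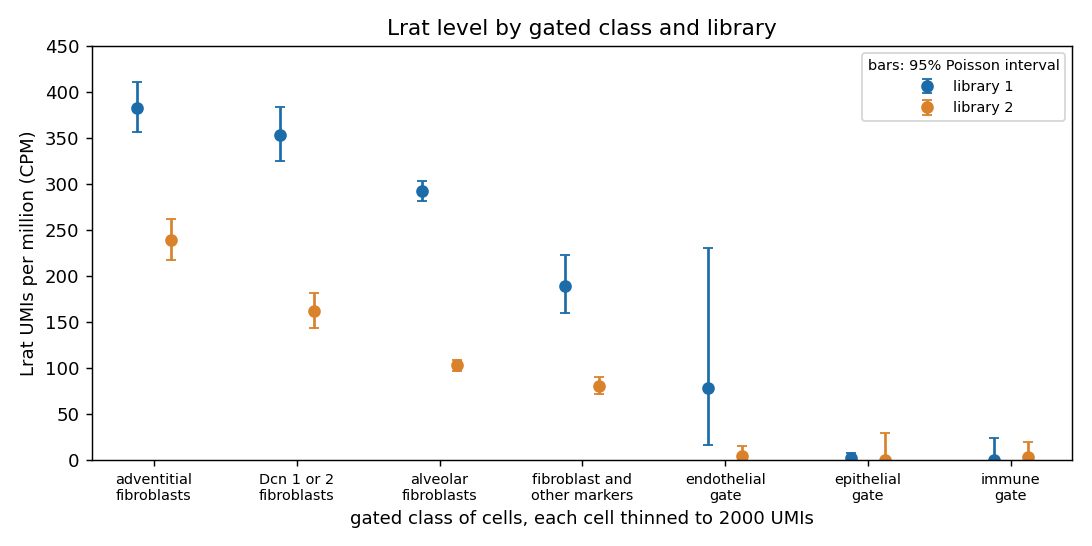
Level of *Lrat* in CPM for each gated class, cells thinned to 2000 UMIs, with 1 point per library and bars for the exact 95% Poisson interval. Adventitial fibroblasts (383 and 239 CPM) lie above alveolar fibroblasts (292 and 103 CPM) in each library, and the epithelial and immune gates lie at or near 0.

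The share of cells with a transcript followed the level. At 2000 UMIs per cell, 43.7% of adventitial fibroblasts in library 1 (40.6 to 46.8) and 30.3% in library 2 (27.4 to 33.3) held an *Lrat* UMI. Among alveolar fibroblasts the share was 38.7% (37.4 to 40.1) and 16.4% (15.4 to 17.4). Adventitial cells had the larger share in both libraries, while the alveolar share of library 1 was above the adventitial share of library 2. Epithelial cells, taken as cells that should lack the gene, gave 0.421% (2 cells) in library 1 and 0 of 62 cells in library 2, which at a floor of 3 cells allows a share with a UMI of up to 4.84%. The median depth before thinning was 9841 and 13886 UMIs in those epithelial cells, 4234 and 6561 in alveolar and 6062 and 10594 in adventitial fibroblasts. With every UMI counted, the shares were 55.5% and 37.5% of alveolar fibroblasts, 68.0% and 70.1% of adventitial fibroblasts and 0.421% and 3.12% of epithelial cells. The fibroblasts' depth was thus below that of the epithelial cells, whose share stayed far under theirs.

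Counts per cell were spread more widely than a single Poisson rate would give. The variance of *Lrat* UMIs over cells was 1.42 and 1.30 times the mean in alveolar fibroblasts and 1.70 and 1.82 times in adventitial fibroblasts, where a common rate gives a ratio near 1. The ratio was higher in adventitial cells in both libraries, but it can rise with the mean, which was higher there too. Fibroblasts with 1 or 2 *Dcn* transcripts had ratios of 1.48 and 1.81. Of alveolar cells with *Lrat*, 34.6% and 20.7% held 2 or more UMIs, and of such adventitial cells 45.1% and 34.9% did. The highest count was 8 and 4 UMIs in an alveolar cell and 9 in an adventitial cell of either library. Being more numerous, alveolar fibroblasts still held most of the transcript, 66.4% and 51.5% of the *Lrat* UMIs of all thinned cells, and adventitial fibroblasts held 17.1% and 21.5%.

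**Figure D2:**
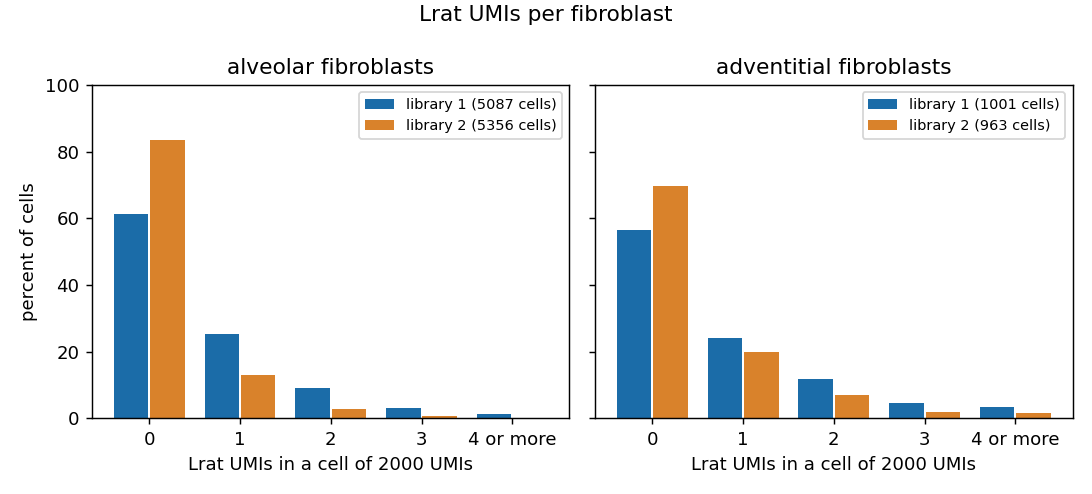
Percent of alveolar (left) and adventitial (right) fibroblasts with 0, 1, 2, 3 and 4 or more *Lrat* UMIs in a cell of 2000 UMIs, with 1 bar per library. Cells with 4 or more UMIs are 1.30% and 0.0934% of alveolar cells and 3.30% and 1.66% of adventitial cells in libraries 1 and 2.

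Alveolar fibroblasts with an *Lrat* UMI (*Lrat*-positive, 1970 and 877 cells) differed little from those without one (3117 and 4479 cells). Only 45 of 11383 genes passed the test, 0.395% of them, with 7 higher (0.0615%) and 38 lower (0.334%) in *Lrat*-positive cells. The genes that were higher had small folds. *Rbp4*, which encodes the plasma carrier of retinol, was lower, as were the contractile genes *Acta2* and *Tagln* and a set of transcripts of epithelial, immune and red blood cells. At an unadjusted p under 0.05 there were 706 genes, or 6.20%. Of the 45, 40 had the same direction in both libraries. A call in this fit itself favours equal signs, and the share over all genes tested is not given, so this count is no separate support.

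Among the genes higher in *Lrat*-positive alveolar cells, *Rgs2*, a regulator of G protein signalling, stood at 194 against 161 CPM in library 1 and 292 against 223 CPM in library 2. *C4b*, a complement component, stood at 251 against 227 CPM and 294 against 205 CPM. A *C4b* UMI was present in 24.7% of positive and 24.7% of negative cells in library 1, and in 29.3% and 23.2% in library 2. *Gpam*, the mitochondrial acyltransferase that starts glycerolipid synthesis, stood at 63.2 against 53.9 CPM and 163 against 116 CPM. In each of these genes *Lrat*-positive cells were above *Lrat*-negative cells within both libraries, but for *Rgs2* and *Gpam* the negative cells of library 2 were above the positive cells of library 1. Log2 fold changes were 0.32 ± 0.06 for *Rgs2* (adjusted p = 3.23e-05), 0.30 ± 0.06 for *C4b* (7.27e-05) and 0.37 ± 0.08 for *Gpam* (0.00157). *Hp*, *Ranbp9* and *Adarb1*, which encode haptoglobin, a Ran-binding scaffold and an RNA-editing deaminase, had log2 fold changes of 0.43, 0.33 and 0.23. For *Hp*, 1 cell held 22.0% of the UMIs in the positive cells of library 2. With 0, 1, 2 and 3 or more *Lrat* UMIs, *Hp* was at 38.2, 52.4, 30.2 and 27.5 CPM in library 1. In library 2 it was at 60.3, 84.2, 124 and 146 CPM. The largest adjusted p among the 6 was 0.0483, for *Ranbp9*, which passed in 2 of 14 alternative analyses, while *Rgs2* and *C4b* passed in 9, *Gpam* in 8, *Hp* in 7 and *Adarb1* in 3.

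*Rbp4* was at 22.8 CPM in *Lrat*-positive against 60.5 CPM in *Lrat*-negative alveolar cells of library 1, and at 18.8 against 32.2 CPM in library 2. Both positive values were below both negative values. On the log2 scale the difference was -1.25 ± 0.14 (adjusted p = 5.65e-16), with -1.42 and -0.80 in the single libraries. It stayed negative in all 14 alternatives and passed the test in 11 of them. It was -0.49 without thinning, where *Lrat* status was set anew from all UMIs and could depend on the depth of a cell. With DESeq2 the adjusted p was 0.367. Few alveolar cells carried the transcript: 1.88% and 2.05% of *Lrat*-positive cells and 4.40% and 3.04% of *Lrat*-negative cells held an *Rbp4* UMI. A level that low in alveolar cells rests on few cells.

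*Acta2*, the smooth muscle actin of myofibroblasts, was at 25.4 against 30.0 CPM in library 1 and 30.2 against 81.9 CPM in library 2, so that the positive cells of library 2 were just above the negative cells of library 1. Its log2 fold change was -0.84 ± 0.13 (adjusted p = 2.86e-08), with -0.26 and -1.46 in the single libraries. *Tagln*, another actin-binding gene of contractile cells that alveolar fibroblasts also express, was at 599 against 650 CPM and 475 against 624 CPM, a change of -0.25 ± 0.05 on the log2 scale (adjusted p = 7.27e-05). *Crip1* (-0.26), a LIM protein, and *S100a10* (-0.20), an annexin partner, fell by as little. *Tagln*, *Crip1* and *S100a10* fell outside the size rule for named genes and were chosen after their values were seen. *Ccl2*, a chemokine, was at 12.4 against 43.6 CPM and 0.57 against 4.58 CPM (log2 fold change -1.87, adjusted p = 1.24e-15), but 1 cell held 27.6% and 53.7% of its UMIs among the negative cells.

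The largest folds belonged to transcripts of other lineages, and some of these rested on a few cells. Of the 45 genes, 11 were in the marker lists of epithelial, immune or blood cells, and in 19 a single cell held more than 25% of the UMIs of at least 1 sum. *Hbb-bs*, a haemoglobin chain, was at 1.02 against 61.6 CPM and 1.71 against 55.4 CPM, and 1 cell held 96.2% of the UMIs in the negative cells of library 2. *Sftpc*, the surfactant protein of type 2 pneumocytes, was at 673 against 1951 CPM in library 1 and 266 against 314 CPM in library 2. In both genes the positive cells were lower in each library, with ranges that overlapped for *Sftpc*. The share of cells with an *Sftpc* UMI was close in the classes, 49.1% of positive against 50.4% of negative cells in library 1 and 18.0% against 18.3% in library 2. In the positive cells of library 2, 1 cell held 47.6% of the *Sftpc* UMIs. Other genes of this kind were *Sftpa1*, *Sftpb*, *Cxcl15*, *Lyz2*, *Cd74* and *H2-Eb1*, with log2 fold changes from -1.82 to -1.17.

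The marker lists of those lineages gave the same contrast of sums. The 12 epithelial markers summed to 825 CPM in *Lrat*-positive and 2336 CPM in *Lrat*-negative alveolar cells of library 1, and to 375 and 475 CPM in library 2, with *Krt8* at 0 in the positive cells of library 2 and no other marker at 0. The 13 immune markers summed to 229 against 486 CPM and 79.2 against 142 CPM, with *Cd3e* at 0 in 3 of the 4 sums and *Lcp1* and *Il1b* in 1. The 7 blood and plasma markers summed to 7.61 against 96.6 CPM and 10.3 against 89.6 CPM, with *Alas2* at 0 in 3 of the 4 sums and *Ppbp*, *Hba-a2* and *Hbb-bt* in 1 each. Positive cells had the lower sum for each list in each library. Of the markers tested, 5 of 9 epithelial, 3 of 11 immune and 3 of 4 blood and plasma markers were called lower, and 0 of 4 endothelial markers were called by edgeR or DESeq2, with 0 at an unadjusted p under 0.05. When cells with 5 or more UMIs of such markers were left out, an alternative chosen after the data had been seen, 11 genes were called, 4 higher and 7 lower. The cells were chosen by these markers apart from *Sftpc*, so the calls of the markers used are not read in that fit. *Sftpc*, which did not choose the cells, had a log2 fold change of 0.0221 there and was not called. *Rbp4* had a log2 fold change of -1.30 in that fit and was still called. Depth and mitochondrial share were close in the classes: the median depth before thinning was 4162 and 4286 UMIs in library 1 and 6794 and 6539 in library 2, and the median mitochondrial share 1.19% and 1.19%, and 2.30% and 2.26%, in positive and negative cells. The part of cells that hold other-lineage transcripts in the calls left was not tested beyond this.

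Adventitial fibroblasts with an *Lrat* UMI (437 and 292 cells) had less transcript of several adventitial genes than those without one (564 and 671 cells). The test called 27 of 8447 genes, 0.32% of them, with 5 higher (0.0592%) and 22 lower (0.26%) in *Lrat*-positive cells. *Rbp4* was again among the lower genes, at a level many times that of alveolar cells, beside *Cd34*, *Pi16*, *Ly6a* and *Igfbp4*. *Mmp3*, *Man2a1*, *C2* and *Lpgat1* were higher. Of the 27, 26 went the same way in both libraries, a count that the call itself favours here too, and 582 genes, 6.89%, had an unadjusted p under 0.05.

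*Rbp4* was at 503 CPM in *Lrat*-positive against 956 CPM in *Lrat*-negative adventitial cells of library 1, and at 159 against 395 CPM in library 2. Positive cells were lower in each library, although those of library 1 lay above the negative cells of library 2. On the log2 scale the difference was -1.06 ± 0.09 (adjusted p = 9.64e-09), with -0.96 and -1.33 in the single libraries. Over 15 alternatives the value ran from -1.54 to -0.74 and was called in 14, the exception being the fit without the library as a block. With DESeq2 *Rbp4* was the only gene called.

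The level of *Rbp4* stepped down from 0 to 2 *Lrat* UMIs in the adventitial cells of both libraries. These classes divide the same cells by the same *Lrat* counts, so the steps describe the contrast above and are no separate support. In library 1 *Rbp4* was at 956 CPM in cells with 0 *Lrat* UMIs, 617 CPM with 1, 420 CPM with 2 and 282 CPM with 3 or more. In library 2 it was 395, 192, 73.5 and 147 CPM, the last with an interval of 70.5 to 270 from 34 cells, so the last step was not resolved. The order held at each step of library 1 and from 0 to 2 UMIs in library 2. In alveolar cells the same classes gave 60.5, 27.9, 8.64 and 22.9 CPM in library 1 and 32.2, 15.8, 39.0 and 0 CPM in library 2, the last over 41 cells, for which the interval reached 45.0 CPM. The same counts can be read the other way, which adds no separate evidence. Of adventitial cells with an *Rbp4* UMI 32.5% and 19.8% held *Lrat*, against 52.4% and 34.2% of those without. The shares of alveolar cells were 21.3% and 11.7% against 39.3% and 16.5%. In adventitial cells the intervals, which cover counting of cells within a library only, were 28.1 to 37.1 against 48.2 to 56.6 and 15.1 to 25.2 against 30.7 to 37.8.

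**Figure D3:**
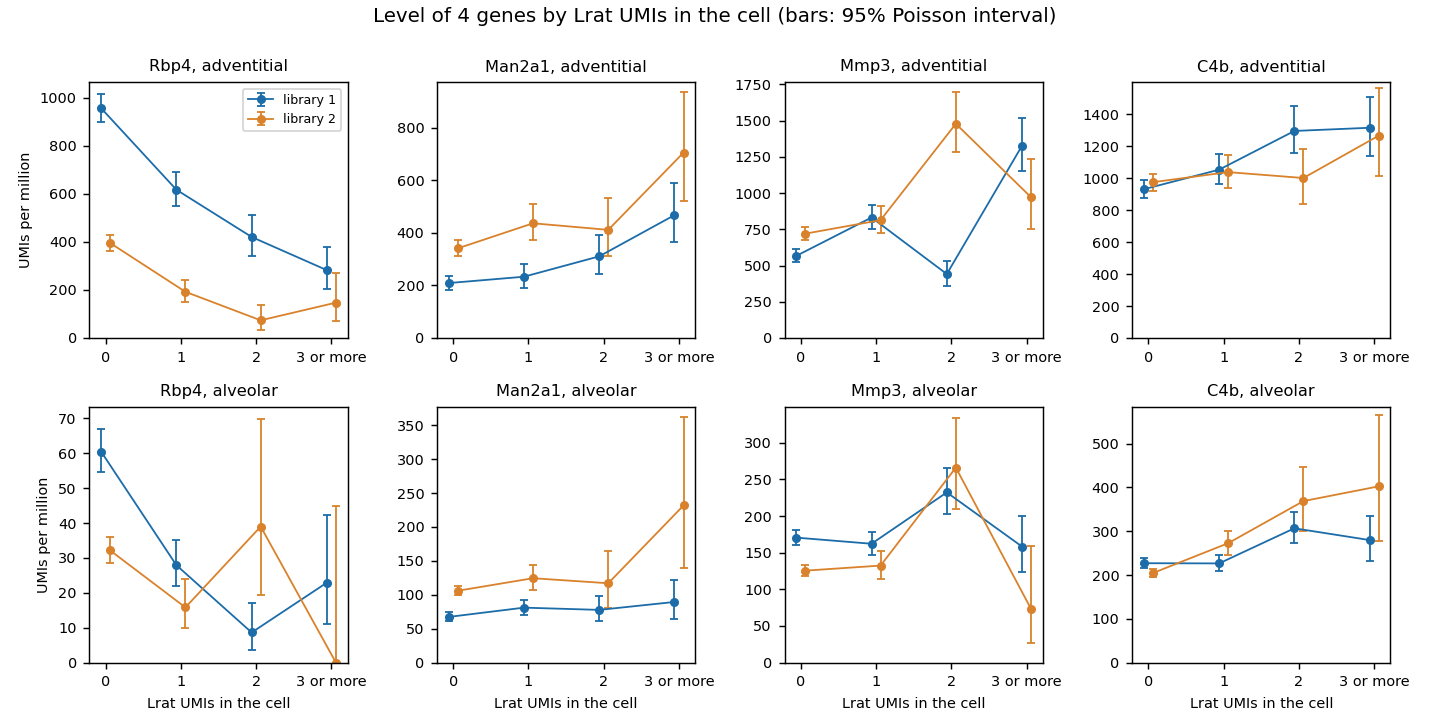
Level in CPM of *Rbp4*, *Man2a1*, *Mmp3* and *C4b* in alveolar and adventitial fibroblasts with 0, 1, 2 and 3 or more *Lrat* UMIs, with 1 line per library and bars for the exact 95% Poisson interval; panels have separate vertical axes. In adventitial cells *Rbp4* goes from 956 down to 282 CPM (library 1) and from 395 down to 73.5 CPM at 2 *Lrat* UMIs (library 2), while *Mmp3* rises and falls between classes.

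The other lower genes of adventitial cells included surface markers, signalling genes and a contractile gene. *Cd34*, a surface sialomucin, was at 121 against 235 CPM in library 1 and 89.0 against 135 CPM in library 2, and *Lrat*-positive cells were below both negative values in each library. Its log2 fold change was -0.85 ± 0.14 (adjusted p = 0.00105). *Ptch1*, the receptor of hedgehog ligands, was at 159 against 291 CPM and 65.1 against 99.9 CPM, lower in positive cells of each library but with ranges that overlapped between libraries, and its log2 fold change was -0.83 ± 0.13 (adjusted p = 0.00105). *Acta2* was at 60.6 against 97.5 CPM and 44.5 against 106 CPM, so both positive values were below both negative values (log2 fold change -0.93 ± 0.18, adjusted p = 0.00908). *Fndc1* (-0.92), *F3* (-0.77) and *Nkain4* (-1.13), which encode a fibronectin-domain protein, tissue factor and a subunit-interacting protein of the sodium pump, were lower as well. *Ccl2*, *Cd248*, *Ccl11*, *Meg3* and 5031439G07Rik had log2 fold changes from -3.07 to -1.42 on low levels. *Ccl2* had 0 UMIs in the positive cells of library 2 and 1 cell held 31.8% and 38.1% of its UMIs among the negative cells. *Ccl11*, an eotaxin, had 69.6% of its UMIs in positive cells of library 1 in 1 cell.

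Of 19 adventitial markers tested in adventitial cells, 7 were called lower and 0 higher, with a median log2 fold change of -0.39 against -0.01 for all genes tested. These were *Rbp4*, *Ccl11*, *Cd34*, *Pi16* (-0.73), *Ly6a* (-0.70), *Igfbp4* (-0.46) and *Clec3b* (-0.35). *Pi16* was at 165 against 258 CPM and 25.7 against 53.7 CPM, and an *Lrat* UMI was present in 31.3% and 15.4% of adventitial cells with a *Pi16* UMI, against 46.1% and 31.0% of those without. In both libraries the cells with *Pi16* had the smaller share, which is the same contrast read the other way. When cells with a *Pi16* UMI were left out, an alternative chosen after the data had been seen, 2 markers of the list, *Rbp4* and *Cd34*, were called, and the median was -0.16. In alveolar cells 1 of 17 of these markers, *Rbp4*, was called, and the median was -0.01.

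Among the higher genes of adventitial cells, *Mmp3*, a matrix metalloproteinase, was at 814 against 566 CPM in library 1 and 986 against 720 CPM in library 2, and both positive values were above both negative values. Its log2 fold change was 0.47 ± 0.08 (adjusted p = 0.00135), and it was called in 12 of 15 alternatives. *C2*, a complement protease, was at 138 against 93.1 CPM and 175 against 103 CPM, again without overlap (log2 fold change 0.65 ± 0.14, adjusted p = 0.019). *Man2a1*, a mannosidase of the Golgi, was at 296 against 209 CPM and 462 against 341 CPM, higher in positive cells of each library with ranges that overlapped between libraries (0.45 ± 0.09, adjusted p = 0.0189). *Lpgat1*, an acyltransferase of lysophospholipids, had a log2 fold change of 0.53 (adjusted p = 0.0386). The fifth gene called higher, *Cd74*, went up in library 1 (197 against 13.3 CPM) and down in library 2 (15.4 against 44.0 CPM), and 1 cell held 33.9% of its UMIs in the negative cells of library 2.

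The other-lineage markers moved differently in adventitial cells. The immune markers summed to 426 CPM in positive and 94.0 CPM in negative cells of library 1 and to 47.9 and 108 CPM in library 2, with 2 to 7 of 13 at 0 (*Cd3e* in every sum), and the epithelial markers to 539 against 400 CPM and 104 against 190 CPM, with 1 to 6 of 12 at 0 (*Aqp5* and *Krt8* in 3 of 4 sums). The libraries thus went in opposite directions. Without the cells with 5 or more UMIs of such markers, 18 of the 27 genes were called, 4 higher and 14 lower, among them *Rbp4*, *Cd34*, *Pi16*, *Ly6a* and *Igfbp4*. The genes no longer called were *Cd74*, *Clec3b*, *Ccl11*, *Cd248*, *Meg3*, *Nkain4*, *Vim*, *Wnt4* and 5031439G07Rik, and the part of the cells left out in these calls was not tested.

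A direct test of the difference between the alveolar and adventitial contrasts called 8 of 10005 genes, 0.08%, and 546 genes (5.46%) had an unadjusted p under 0.05. Of these, 6 were immune or epithelial transcripts, and the others were *Cd34* and *Ptch1*, which had log2 fold changes of -0.08 and 0.02 in alveolar cells and -0.85 and -0.83 in adventitial cells. *Rbp4* was not among the 8. DESeq2 called 0 genes in this test, with 63 at an unadjusted p under 0.05.

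Genes of retinoid handling other than *Rbp4* were not called between *Lrat*-positive and *Lrat*-negative cells in the main draw of 2000 UMIs. A second draw at this depth called *Aldh1a1* and *Dhrs3* higher in adventitial cells, where the list median was 0.0057. The same genes were called there with a fibroblast sum of 10, and *Aldh1a1* without a filter. The values that follow are from the main draw unless another setting is named. Of 29 such genes tested in alveolar cells 1 was lower and 0 higher, with a median log2 fold change of 0.08, and 22 had a positive sign. Of 23 tested in adventitial cells 1 was lower and 0 higher, with a median of 0.14. The medians over all genes tested were -0.00338 and -0.00808. At an unadjusted p under 0.05, in either direction, there were 7 of the 29 and 7 of the 23, *Rbp4* included. Over all genes tested the shares were 6.2% in alveolar and 6.89% in adventitial cells, so the list lay above them in both groups. DESeq2 called 0 and 1. At 3000 UMIs 1 was higher and 2 lower in alveolar and 4 higher and 2 lower in adventitial cells. Without thinning, where *Lrat* status was set from all UMIs and could depend on depth, the counts were 4 and 2, and 6 and 3. The list had 57 measured members, and those not tested, *Lrat* itself apart, had levels below the filter on low counts.

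Among the genes of retinol uptake and esterification, *Stra6*, the membrane receptor of the retinol carrier, and *Rbp2* had 0 UMIs in either fibroblast group. *Dgat1*, an acyltransferase that can also esterify retinol, was at 12.3 to 18.5 CPM over the groups and libraries, and its log2 fold changes of 0.31 ± 0.19 in alveolar and -0.03 ± 0.40 in adventitial cells did not pass the test.

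Of the genes that release or oxidise retinol, *Aldh1a1*, which makes retinoic acid from retinaldehyde, came nearest to the threshold. It was at 610 against 486 CPM and 1339 against 1081 CPM in adventitial cells, a difference of 0.30 ± 0.08 on the log2 scale (adjusted p = 0.0806), and at 0.10 ± 0.04 in alveolar cells. *Dhrs3*, which turns retinaldehyde back into retinol, was at 149 against 99.3 CPM and 104 against 75.3 CPM in adventitial cells, 0.52 ± 0.15 (adjusted p = 0.136). Both were higher in positive cells of each library, and both were called in adventitial cells with a second random thinning to 2000 UMIs, so these values lay close to the threshold. *Adh1*, a retinol dehydrogenase, gave 0.17 ± 0.07 in alveolar and -0.28 ± 0.10 in adventitial cells, and the carboxylesterase *Ces1d* gave 0.11 ± 0.05 and 0.37 ± 0.13, none of them called at 2000 UMIs. At 3000 UMIs *Ces1d* was called higher in adventitial cells (0.64) and *Adh1* higher in alveolar cells (0.22). Without thinning both were called too, at 1.01 (edgeR, adjusted p = 1.45e-12) and 0.19 (0.000578). In that setting *Lrat* status was set from all UMIs, so it could depend on the depth of a cell. Positive adventitial cells then numbered 687 and 675 in libraries 1 and 2, against 437 and 292 in the main draw. *Adh1* was at -0.0628 in alveolar cells with the second thinning. The receptor genes *Rara*, *Rarg*, *Rxra* and *Rxrb* lay between -0.06 and 0.27 in both groups. Of the 14 retinoic acid response genes tested in each group, edgeR and DESeq2 called 0, with medians of 0.07 and 0.20. At an unadjusted p under 0.05 there were 1 in alveolar and 6 in adventitial cells, against 6.2% and 6.89% of all genes tested.

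Between the fibroblast groups themselves the retinoid genes differed far more. Of 31 tested, 8 were higher and 7, *Lrat* included, lower in alveolar than in adventitial cells, against the 18.8% called over all genes. *Ces1d* was at 566 and 542 CPM in alveolar against 128 and 203 CPM in adventitial cells (log2 fold change 1.72), and *Aldh1a1* at 767 and 1773 against 540 and 1159 CPM (0.51). The alveolar *Ces1d* values lay above both adventitial values, whereas *Aldh1a1* differed more between libraries than between groups. *Rbp4* was at 45.9 and 30.0 CPM against 758 and 323 CPM (-3.81), *Adh7* at 0.983 and 0.934 CPM against 141 and 26.0 CPM (-6.39), and *Adh1* at 120 and 113 CPM against 295 and 263 CPM (-1.30). For these 3 the adventitial values were above every alveolar value, the side on which *Lrat* was higher too. *Rdh14*, *Dhrs7*, *Crabp1*, *Cd36*, *Lipe* and *Pnpla2* were the other genes higher in alveolar cells and *Rdh10*, *Dhrs3* and *Lpl* the other lower ones.

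**Figure D4:**
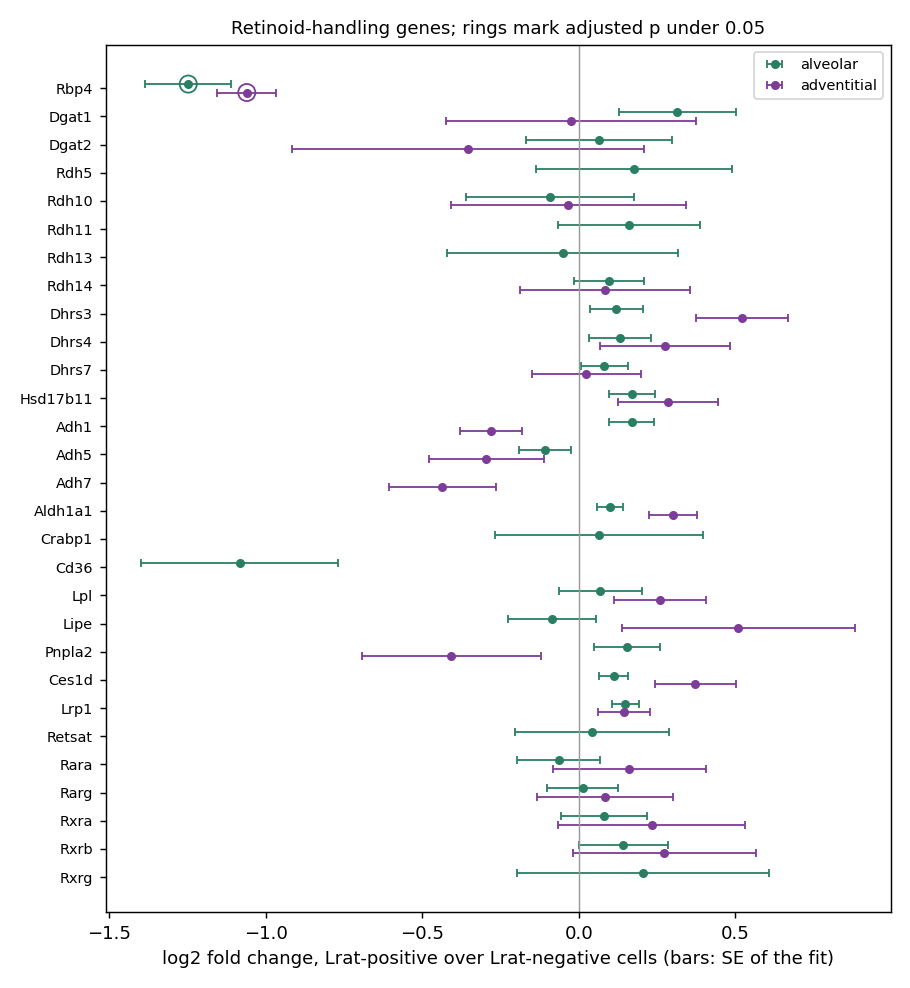
Log2 fold change of *Lrat*-positive over *Lrat*-negative cells for retinoid-handling genes that were tested, with bars for the SE, in alveolar and adventitial fibroblasts. *Rbp4* lies at -1.25 and -1.06 and *Cd36*, which was not called, at -1.08 in alveolar cells, and the other genes lie nearer to 0.

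The remaining gene groups held few calls. Over all genes tested, 6.2% in alveolar and 6.89% in adventitial cells had an unadjusted p under 0.05. Of 32 lipid droplet and lipofibroblast genes tested in alveolar cells 2 were lower, *Fabp5* and *Scd1*, the latter with opposite signs in the libraries, and 8 had an unadjusted p under 0.05. Of 27 in adventitial cells edgeR and DESeq2 called 0, with 4 at an unadjusted p under 0.05. Both medians were 0.05. *Plin2*, a lipid droplet coat, gave 0.01 ± 0.06 and -0.01 ± 0.14. Of 25 alveolar fibroblast markers 1 (*Tagln*) was lower in alveolar cells, with 7 at an unadjusted p under 0.05. In adventitial cells edgeR and DESeq2 called 0 of them, with 8 at an unadjusted p under 0.05, and *Npnt* (0.36, adjusted p = 0.0657) and *Wnt2* (0.67, adjusted p = 0.121) missed the threshold. Of 9 and 7 myofibroblast, smooth muscle and pericyte genes, 1 (*Acta2*) was lower in each group, with medians of -0.33 and -0.62. At an unadjusted p under 0.05 there were 2 of the 9 and 6 of the 7, and 2 and 0 had a positive sign. The 18 genes of this list summed to 262 against 283 CPM and 229 against 333 CPM in positive and negative alveolar cells and to 262 against 439 CPM and 212 against 326 CPM in adventitial cells, lower with *Lrat* in all 4 pairs, and the part of contractile cells in the *Acta2* values was not tested. Of 11 hepatic stellate cell genes 1 (*Vim*, -0.30) was lower in adventitial cells, with 5 at an unadjusted p under 0.05. In alveolar cells 0 of them were called by either tool, with 3 at an unadjusted p under 0.05. *Reln*, *Lhx2* and *Gfap* of that list had 0 UMIs in both groups. Both tools called 0 of 23 immediate early genes in alveolar and in adventitial cells, with 2 and 3 at an unadjusted p under 0.05, and 0 of 10 heat shock genes, with 0 and 1. They called 0 of 20 matrix genes in alveolar cells, with 3 at an unadjusted p under 0.05, and 0 of 26 and 24 signalling genes, with 2 and 5. Of 21 matrix genes in adventitial cells 1 (*Mmp3*) was higher, with 6 at an unadjusted p under 0.05. Of 16 glucocorticoid and clock genes in alveolar cells 1, the cell cycle inhibitor *Cdkn1a* (-0.28), was lower, with 2 at an unadjusted p under 0.05. *Plaat3*, a phospholipase of the same protein family as the enzyme, lay between 3.42 and 19.0 CPM over all sums, with log2 fold changes of 0.24 ± 0.20 in alveolar and -1.20 ± 0.48 in adventitial cells, and was called in neither.

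A ranking by correlation with *Lrat* over cells found weak values only. Pearson's r was taken over log(1 + UMIs) of thinned alveolar cells within each library, 5087 and 5356 cells, for 4548 genes present in at least 5% of cells, and the cells of a library share its depth and preparation. The 10 genes with the highest mean r included *Lrp1* (0.06), *Inmt* (0.05), *Adarb1*, *Gpam*, *Npnt*, *Rgs2*, *Selenop*, *C4b* and *Ranbp9* (0.04). *Lrp1* encodes a receptor that takes up lipoprotein remnants and *Inmt* a methyltransferase abundant in lung fibroblasts. In the 1001 and 963 adventitial cells the highest of 4327 genes were *Man2a1* (0.14), *Npnt* (0.14), *Inmt* (0.13) and *Ppp1r3a* (0.12), and the lowest was *Rbp4* (-0.19). *Npnt* and *Inmt* were in both lists of 10, with library values of 0.21 and 0.07 and of 0.19 and 0.06 in adventitial cells. Values of this size in sparse counts describe the ordering and nothing more.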

How the data were processed

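Single-cell suspensions of mouse lung were sorted for UV-positive live cells and made into 2 libraries with the 10x Genomics 3′ chemistry. For each library the authors deposited raw UMI counts per gene and cell barcode, made with Cell Ranger 5.0.1 on build mm10 per the submitters' processing notes, without normalization; the annotation release is not given in the sources used here. No doublets were removed. Total UMI counts per library are given above, and 23 barcodes occur in both.

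Gates, thinning to 2000 UMIs (seed 20240) and summing per library and class were done in Python 3.11.15 with numpy 2.4.6. Classes with fewer than 20 thinned cells in a library were not tested. Sums were compared with edgeR 4.0.16 in R 4.3.3 (TMM, filterByExpr, quasi-likelihood test, two-sided, Benjamini-Hochberg over all genes tested, threshold 0.05) with the library as a block. The 8 gate genes were left out of tests between classes, and *Lrat* out of tests between *Lrat*-positive and *Lrat*-negative cells. The code was tested on simulated data. Intervals are exact Clopper-Pearson or Poisson intervals (scipy 1.17.1).

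Named genes were, per contrast and direction, the 12 largest log2 fold changes among called genes with the same direction in both libraries and at least 20 CPM in one class (or, where fewer than 5 passed, the 5 with the smallest p), the retinoid list, the most abundant members of other lists, and the 10 genes with the highest mean correlation. The gene, the gates, the lists and the named-gene rule were chosen with earlier results of these data known. Alternatives were the thinning depth and draw, no thinning, DESeq2 1.42.0, filters, gates, the *Lrat* threshold and leaving out each library. Some genes are not reported here, though they stay in the counts.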

Additional observations from a re-analysis of the deposited data

Results flagged for a closer look

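The contrast of *Lrat*-positive with *Lrat*-negative cells differed between alveolar and adventitial fibroblasts in 8 genes, by a test of the interaction (edgeR, adjusted p under 0.05). The difference of log2 fold changes, alveolar minus adventitial, was -3.04 for *Cd74*, -2.69 for *H2-Eb1*, -2.64 for *H2-Ab1* and -2.51 for *H2-Aa*, which belong to antigen presentation, -2.08 for the lysozyme gene *Lyz2* and -1.92 for the surfactant gene *Sftpa1*. In these 6 genes the fold change was negative in alveolar and positive in adventitial cells. Without the cells that held 5 or more UMIs of other-lineage markers, 4 of these 6 genes among them, 1 gene was called in this test, *Ptch1* (0.90). The difference was 0.85 for *Ptch1* and 0.77 for *Cd34*, both lower with *Lrat* in adventitial cells.

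Cells that entered no gate and no comparison held *Lrat* at 16.51 CPM in library 1 (21 UMIs in 636 cells) and 5.13 CPM in library 2 (4 UMIs in 390 cells). Both are below every fibroblast class. The value of library 1 is above the 2.11 CPM of its epithelial cells, while 0 UMIs in the 62 epithelial cells of library 2 allow up to 24.2 CPM, so the value of library 2 cannot be set apart from that class.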

How the results depend on the processing

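Between alveolar and adventitial fibroblasts 907 genes were called with DESeq2 and 137 without the library as a block (19 higher and 118 lower), where *Lrat* gave -0.70 and was not called; its call held in the other 10 alternatives. Among alveolar cells the 45 calls became 16 at 1000 UMIs, 84 at 3000 (24 higher, 60 lower), 4 with DESeq2, 26 with 2 or more *Lrat* UMIs, 302 without thinning (187 higher, 115 lower), 15 without *Sftpc* cells (5 and 10), 11 without other-lineage cells (4 and 7), and 0 without the block or when cells with a UMI were counted (24 and 528 at an unadjusted p under 0.05). A second draw gave 42 calls (11 and 31), of which 27 were shared. Among adventitial cells the 27 calls became 9 at 1000 UMIs, 149 at 3000 (76 and 73), 1 with DESeq2, 54 with a fibroblast sum of 10 (24 and 30), 63 without a filter (24 and 39), 373 without thinning (184 and 189), 62 without *Sftpc* cells (27 and 35), 18 without other-lineage cells (4 and 14), 10 for cells with a UMI, 0 without the block (43 unadjusted) and 83 with a second draw (30 and 53), of which 21 were shared. Leaving out *Pi16* cells gave 29 (14 and 15). The 8 differences became 1 at 1000 UMIs, 19 at 3000, 0 with DESeq2, 5 with 2 or more *Lrat* UMIs, 13 without *Pi16* cells and with the stricter alveolar gate, 18 without a filter, 112 without thinning, 15 with a second draw, 5 without *Sftpc* cells, 1 without other-lineage cells, and 0 without the block or for cells with a UMI (58 and 420 unadjusted). Counting cells with a UMI, leaving out other-lineage cells and leaving out *Pi16* cells were chosen after the data had been seen. Without thinning, *Lrat* status was set from all UMIs, so the classes held other cells and could depend on depth. The cause of the shifts between settings was not tested.

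The mean share of cells with *Lrat*, 27.6% of alveolar and 37.0% of adventitial fibroblasts, became 48.4% and 69.4% without thinning, and the adventitial share 23.4% at 1000 and 46.9% at 3000 UMIs. In single libraries the shares were 16.4% to 38.7% and 30.3% to 43.7%. Signs changed for other-lineage transcripts and 1 further gene. In alveolar cells *Cd74* became 0.21 and *H2-Eb1* 0.25 without thinning, *Lyz2* 0.0772 and *Sftpa1* 0.0177 for cells with a UMI, *Sftpa1* 0.053 without *Sftpc* cells, and *H2-Eb1* 0.10, *Lyz2* 0.17, *Sftpa1* 0.18 and *Sftpc* 0.0221 without other-lineage cells. *Lyz2* and *Sftpa1* were among the markers by which other-lineage cells were chosen, and *Sftpc* was not. In adventitial cells *Cd74* became -0.28 at 1000 UMIs, -0.0268 at 3000, -0.52 with the second draw, -1.52 without library 1 and 3.84 without library 2, and 5031439G07Rik 0.0189 with the second draw. The difference became 0.29 for *Sftpa1* and 0.39 for *H2-Aa* at 1000 UMIs, 0.0795 for *Cd74* with the second draw, 0.45 for *H2-Ab1* without other-lineage cells, and 0.12 for *Lyz2* and 0.19 for *Sftpa1* without library 1 (-2.57 and -2.25 without library 2). With 1 library left out, folds were computed without a test.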
